A study of Mus musculus with 3 samples.

Results

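The 10 mouse genes Lhx1, Lhx2, Lhx3, Lhx4, Lhx5, Lhx6, Lhx8, Lhx9, Lmx1a and Lmx1b encode the LIM-homeodomain relatives of Isl1, and the data show which of them lay under or near Isl1 binding in cardiac progenitor cells (CPCs). They were chosen by gene family. Identical lines of the peak list were dropped, and the peaks whose gene symbol was one of the 10 were kept. This left 9 of 14082 distinct peaks, at 8 of the 10 genes. Lhx3 and Lhx8 had none. The chromatin came from day 5 of a directed cardiac differentiation of the mouse embryonic stem cell (ESC) line E14 Tg(Nkx2-5-EmGFP), which carries a green fluorescent reporter for the cardiac gene Nkx2-5. The labels name this 1 line with no deletion or drug, and no sort on the reporter before chromatin immunoprecipitation followed by sequencing (ChIP-Seq). Isl1 was pulled down in 2 replicates, and 1 input sample held chromatin set aside before that step (3 samples). Both replicates stand behind 1 common list of peaks, which gives positions without scores or read numbers. The spread between replicates and the depth are therefore unknown here, and the cell type was not checked against expression, which was not analysed here.

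LIM-homeodomain proteins carry a pair of zinc-binding LIM domains and a homeodomain, which reads DNA with a TAAT core. Their LIM domains are bridged by Ldb proteins into larger complexes on enhancers and promoters. The family specifies cell types in many tissues of the embryo, mainly in neurons, limb, eye, kidney, gonad and pituitary, and Isl1 is its member known for the second heart field. The 10 genes fall into 5 pairs of close relatives, Lhx1 with Lhx5, Lhx2 with Lhx9, Lhx3 with Lhx4, Lhx6 with Lhx8, and Lmx1a with Lmx1b.

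Peaks at these genes were of 2 kinds, promoter peaks in CpG-rich sequence found once in the genome and remote peaks in repeated sequence. To show the promoter kind, the 150 bases before the transcription start site (TSS) are printed for 4 starts that lay inside a peak, with every CpG in capitals. The same stretch before the first coding start of Lhx3, which had no peak, is set beside that of its relative Lhx4. The starts are those of RefSeq (GRCm38.p6 table), and each sequence was found once in the mm9 genome at the position given.
Lhx2 upstream promoter, chr2:38194651-38194800, plus strand: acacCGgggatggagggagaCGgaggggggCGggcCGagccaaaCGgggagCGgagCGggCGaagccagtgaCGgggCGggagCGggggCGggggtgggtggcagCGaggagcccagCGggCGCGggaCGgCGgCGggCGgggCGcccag
Lhx2 downstream promoter, chr2:38206678-38206827, plus strand: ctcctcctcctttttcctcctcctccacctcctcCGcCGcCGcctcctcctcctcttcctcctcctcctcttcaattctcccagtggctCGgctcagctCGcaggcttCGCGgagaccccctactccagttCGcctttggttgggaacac
Lhx4 promoter, chr1:157589158-157589307, minus strand: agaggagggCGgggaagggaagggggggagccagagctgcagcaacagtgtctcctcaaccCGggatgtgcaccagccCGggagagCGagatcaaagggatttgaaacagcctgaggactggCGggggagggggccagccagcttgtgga
Lhx6 promoter, chr2:35960929-35961078, minus strand: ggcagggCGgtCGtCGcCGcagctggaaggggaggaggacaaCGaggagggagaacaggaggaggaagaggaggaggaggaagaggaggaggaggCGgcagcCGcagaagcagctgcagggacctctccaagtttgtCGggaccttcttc
Lhx3 promoter without a peak, chr2:26063770-26063919, minus strand: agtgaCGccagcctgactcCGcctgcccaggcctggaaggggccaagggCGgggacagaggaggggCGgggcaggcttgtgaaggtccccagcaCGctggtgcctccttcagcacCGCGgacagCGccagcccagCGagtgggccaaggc
The 4 promoters under peaks held 21, 8, 5 and 8 CpG in this order, and the Lhx3 promoter held 9. The median over 32851 RefSeq promoters was 4. Over all 13 RefSeq starts of the family, the 6 inside a peak had 5 to 21 CpG in these 150 bases, with 15 at Lhx1 and 13 at Lmx1b. The 7 outside a peak had 2 to 16, with 2 at Lhx8 and at Lhx9, 3 and 12 at the other Lhx6 starts, 6 at Lmx1a, and 9 and 16 at Lhx3. The ranges overlapped. TAAT on either strand was in 4 of the 13 stretches, at Lhx1, an inner Lhx6 start, Lhx9 and Lmx1a, and in none of the 5 printed. Of all RefSeq promoters 37.8% held it in the same 150 bases.

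The remote kind is shown by the central 200 bases of both remote peaks. In the Lhx5 peak the capitals mark GGAA, and in the Lhx9 peak they mark TAAT.
Lhx5 remote peak, chr5:120778553-120778752, plus strand: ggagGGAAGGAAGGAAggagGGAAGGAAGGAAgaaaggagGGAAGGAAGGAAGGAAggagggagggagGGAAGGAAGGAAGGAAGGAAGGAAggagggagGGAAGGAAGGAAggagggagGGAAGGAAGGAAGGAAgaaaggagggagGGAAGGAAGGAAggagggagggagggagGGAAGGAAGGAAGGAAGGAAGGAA
Lhx9 remote peak, chr1:140685736-140685935, minus strand: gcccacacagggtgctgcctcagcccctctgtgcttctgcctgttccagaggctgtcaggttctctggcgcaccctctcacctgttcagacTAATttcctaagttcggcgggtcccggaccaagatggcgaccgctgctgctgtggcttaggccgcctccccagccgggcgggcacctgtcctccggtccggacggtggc
The Lhx5 centre consisted of purines alone on this strand (100% G or A), with 32 GGAA covering 128 of 200 bases and 0 CpG. The Lhx9 centre was 66% GC with 12 CpG and 41.5% G or A. A centre with at least 95% purines on one strand occurred in 8.97% of all peaks, and among the 9 peaks in that of Lhx5 alone.

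An Isl1 peak was assigned to 8 of 10 genes (80%, 95% Wilson interval 49% to 94.3%), against 37.5% of all 21887 protein-coding genes. With peaks at single-copy sequence alone (copy number as defined below), 6 of the 10 genes kept a peak. The share of all genes under that limit was not counted. A promoter peak, taken as one whose midpoint lay within 1 kb of the TSS, was found at 6 of the 10, against 23.2% of all protein-coding genes. These were Lhx1, Lhx2, Lhx4, Lhx6, Lmx1a and Lmx1b. Of the 9 peaks, 7 were promoter peaks (77.8%, interval 45.3% to 93.7%), against 38.5% of all peaks. The intervals cover counting error over these genes or peaks only, and no test was made of so small a list. Lhx2 carried 2 peaks and the other 7 genes carried 1 each. Of all protein-coding genes, 6.62% carried exactly 2, 2.22% carried 3, and smaller shares carried more, up to 12.

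**Figure D1:**
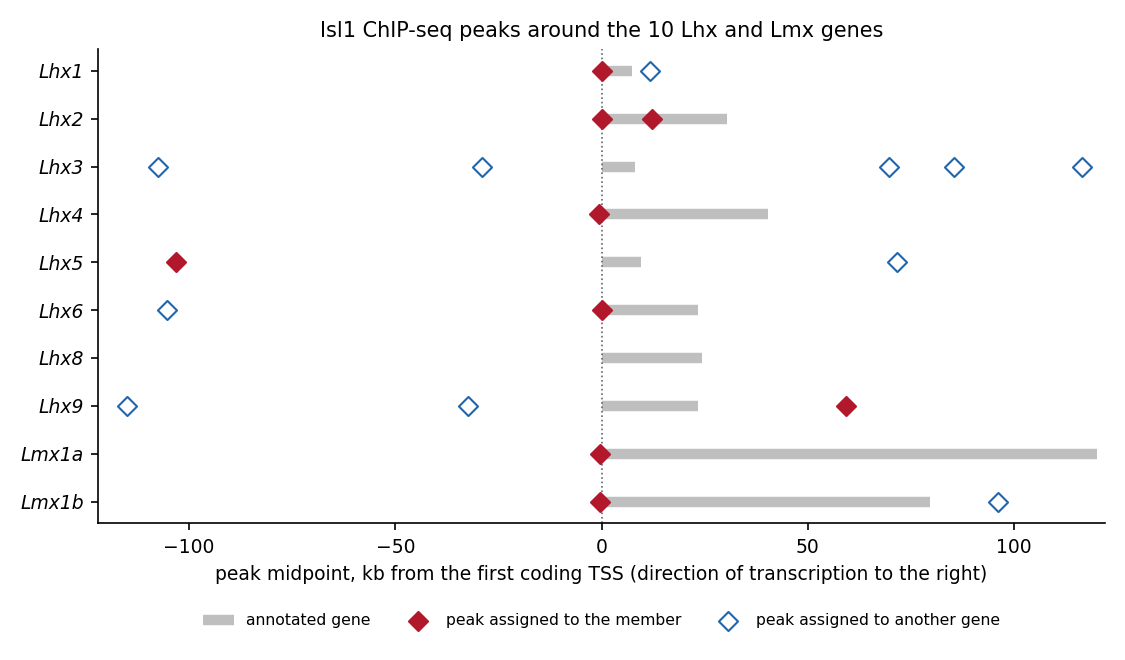
Midpoints of all peaks within 120 kb of the first coding TSS of each of the 10 genes, in kb and in the direction of transcription. Filled diamonds are the 9 peaks assigned to the gene itself and open diamonds the 11 assigned to another gene, and grey bars are the annotated genes. The filled diamonds sat on the TSS in 6 genes, with a second one 12114 bp into Lhx2, and far from it in Lhx5 and Lhx9.

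Within the pairs of relatives, only Lmx1a and Lmx1b had a promoter peak at both genes. Lhx1, Lhx2, Lhx4 and Lhx6 each had a promoter peak, and their relatives had none. Of these relatives, Lhx5 and Lhx9 had a remote peak each, and Lhx3 and Lhx8 had no peak.

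Lhx1 is needed for head formation and for the kidney and female reproductive tract. Its peak at chr11:84338181-84339498 was 1317 bp wide, with the midpoint 197 bp downstream of the TSS used by the authors and 84 bp downstream of the GENCODE TSS at 84338923 on the minus strand. It reached 575 bp upstream and 742 bp downstream of the latter and held 832 bp of untranslated or non-coding exon. Part of the peak overlapped 1500016L03Rik, a long non-coding RNA gene read in the opposite direction. A second peak, at chr11:84326673-84327552, lay 9101 bp downstream of an inner Lhx1 start. It was a promoter peak of the neighbour Aatf, a regulator of transcription and apoptosis, with its midpoint at -109 bp (upstream) from the Aatf TSS. The gap between the Lhx1 peak and this Aatf peak was 10629 bp.

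Lhx2 is required for the eye, the forebrain and the upkeep of hair follicle stem cells. It was the only one of the 10 genes with more than 1 peak, and both lay at annotated promoters on the plus strand. The upstream peak, chr2:38194388-38195525, was 1137 bp wide and centred 155 bp past the TSS at 38194801. The downstream peak, chr2:38206178-38207652, was 1474 bp wide and centred 87 bp past the TSS at 38206828, and it held 120 bp of coding exon. A stretch of 10653 bp without a peak separated them. The start at 38196612 between them, with a CpG observed/expected ratio of 0.22 in the 500 bp to either side, lay in no peak, and neither did the start at 38208052, with a ratio of 0.45. The ratios around both bound starts were 0.69 and 0.79. Here 1 means as many CpG as the C and G content would give by chance. Beyond the gene, the nearest other peak midpoint was 285058 bp from a start.

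Lhx4 acts with Lhx3 in the pituitary and in motor neurons. Its peak, chr1:157589090-157590344, was 1254 bp wide and lay almost wholly upstream of the gene, with 1187 bp before the TSS at 157589157 (minus strand) and 67 bp after it. The midpoint was 560 bp upstream. No other peak came closer than 229297 bp.

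Lhx6 directs the migration and fate of cortical interneurons. Its peak, chr2:35960406-35961246, was the narrowest promoter peak at 840 bp, centred 102 bp downstream of the TSS at 35960928 (minus strand). It included another coding start at 35960791, whereas a further start at 35959580 lay outside. Of its bases, 84 were coding exon and 201 untranslated or non-coding exon.

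Lmx1a, a determinant of the roof plate and of midbrain dopamine neurons, had a peak at chr1:169618366-169619576, 1210 bp wide. The midpoint lay 718 bp upstream of the TSS used by the authors at 169619689 (plus strand), and that start was 113 bp outside the peak. An annotated coding start 399 bp from the midpoint, at 169619370, was inside. It was the most isolated of the 9 peaks, with 347548 bp to the next one. Lmx1b patterns the dorsal limb and the kidney podocyte. Its peak, chr2:33495782-33496825, was 1043 bp wide and centred 272 bp upstream of the TSS at 33496031 (minus strand). The RefSeq start lies 587 bp farther upstream, at 33496618 on mm9, also within the peak, and measured from it the midpoint was 315 bp downstream. So whether the Lmx1b midpoint counts as upstream or downstream rests on the transcript model. The peak also overlapped C130021I20Rik, a non-coding RNA gene in the opposite direction.

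**Figure D2:**
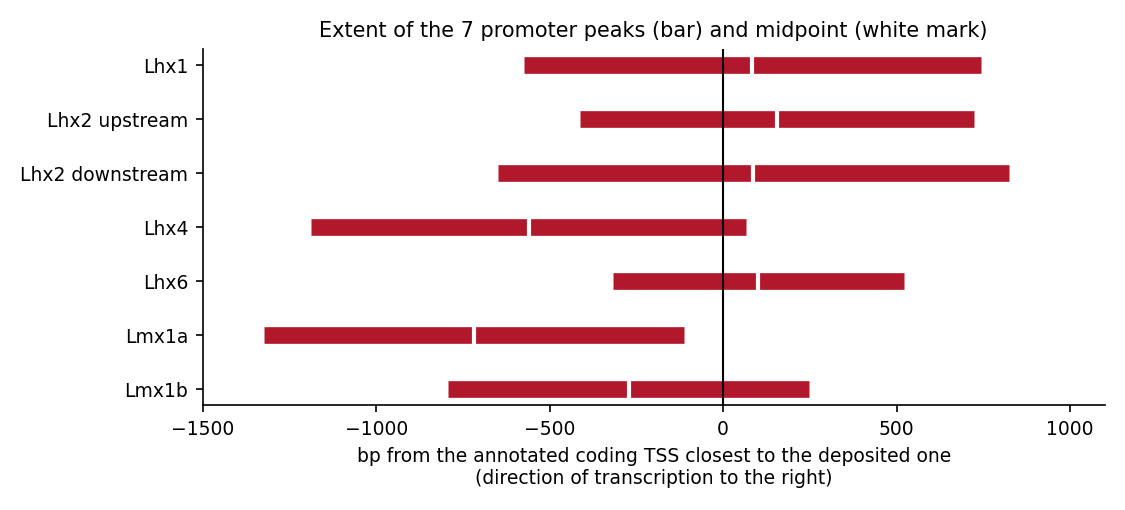
Extent of the 7 promoter peaks in bp from the annotated coding TSS closest to the one used by the authors, with transcription to the right and midpoints in white. The bars of Lhx1, both Lhx2 promoters, Lhx4, Lhx6 and Lmx1b cross the TSS, and that of Lmx1a ends 113 bp before it.

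All 7 promoter peaks contained at least 1 annotated coding start of their gene. The midpoint lay downstream of the TSS used by the authors at Lhx1, both Lhx2 promoters and Lhx6, by 87 to 197 bp. It lay upstream at Lhx4, Lmx1a and Lmx1b, by 272 to 718 bp.

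The remote peaks differed from these in copy number and in repetition. Lhx5, a forebrain and hippocampus regulator, was assigned a peak at chr5:120778260-120779045, 785 bp wide and 103243 bp upstream of its TSS at 120881895 (plus strand). The peak was intergenic, between Rbm19 and Lhx5. Lhx9, a gene needed for the gonads, was assigned a peak at chr1:140685051-140686620, 1569 bp wide and the widest of the 9. It lay 53186 bp downstream of the TSS used by the authors, past the 3′ end of the gene and towards Nek7, and overlapped no annotated gene. No peak midpoint lay within 10 kb of any start of Lhx5 or Lhx9. At both genes the peak nearest to a start was one assigned to another gene. Its midpoint was 71626 bp downstream of the Lhx5 start and 32346 bp upstream of an Lhx9 start.

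The repeat structure was measured as the best identity of any 200 bp stretch with the stretch that begins 2 to 400 bp farther on. For the Lhx9 peak it was 100%, at an offset of 212 bp, and for the Lhx5 peak 94.5%, at an offset of 4 bp. The 7 promoter peaks reached 43% to 54%. At a limit of 90%, 34.7% of all peaks were repetitive in this way, with 0.72% of those within 1 kb of a TSS and 62% of those beyond 10 kb. The Lhx5 and Lhx9 peaks were thus of a kind that made up most of the remote peaks in the list. In the Lhx9 peak the repeat unit carried TAAT, which recurred at the same spacing of 212 bp. The 4 sites are printed with 10 bases to either side, on the minus strand.
Lhx9 site, chr1:140685407-140685430: ctgttcagacTAATatcctaagtt
Lhx9 site, chr1:140685619-140685642: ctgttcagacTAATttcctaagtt
Lhx9 site, chr1:140685831-140685854: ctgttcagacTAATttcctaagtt
Lhx9 site, chr1:140686043-140686066: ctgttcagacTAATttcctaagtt
The last 3 of these were identical as printed.

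Copy number was counted as the median number of times the 31-base words of the central 200 bp occur in mm9. All 7 promoter peaks had a copy number of 1. The Lhx5 peak had 16 and the Lhx9 peak 2916, so that 7 of 9 peaks (77.8%) were at single-copy sequence, against 53.5% of all peaks. The interval around this share (45.3% to 93.7%) includes 53.5%. By kind, 97.4% of all peaks within 1 kb were single-copy, and 18.8% of those beyond 10 kb. With 75-base words the Lhx5 centre was unique and the Lhx9 centre still had 796 copies. Short reads from the Lhx9 repeat could have come from many places, and the part of read placement in this peak was not tested.

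**Figure D3:**
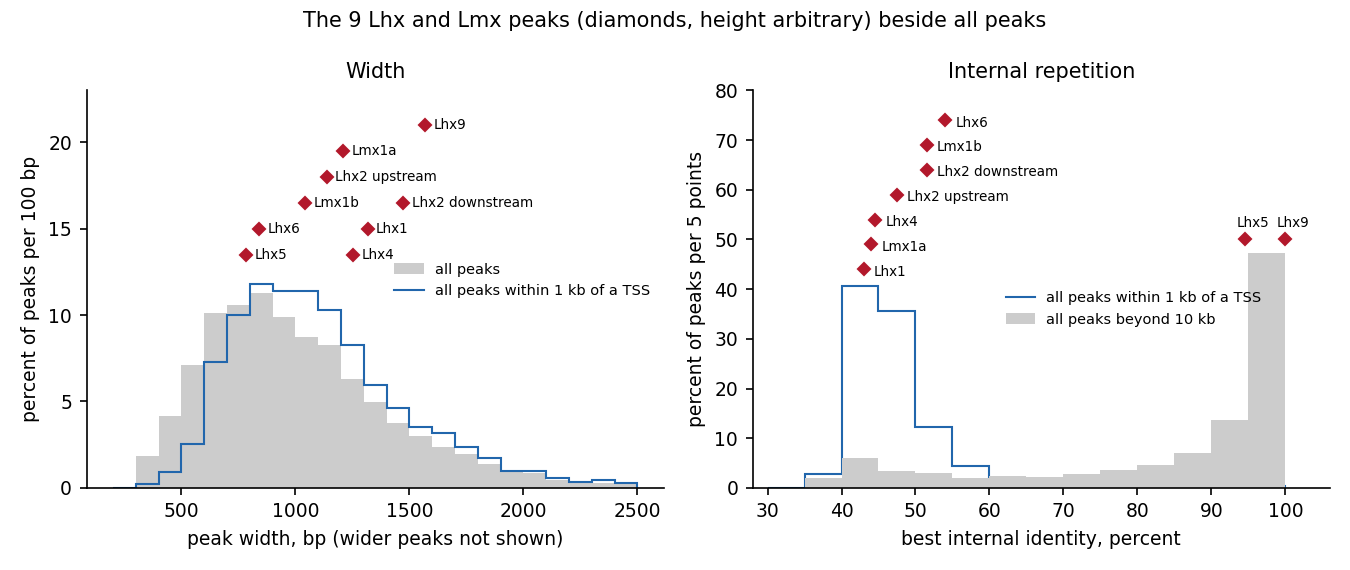
The 9 peaks (diamonds, at arbitrary height) beside the distribution of all peaks, for peak width in bp on the left and best internal identity in percent on the right. The widths of the 9 peaks spread from 785 to 1569 bp across the common range, whereas in internal identity the promoter peaks lie at 43% to 54% and the Lhx5 and Lhx9 peaks at 94.5% and 100%.

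Lhx3 and Lhx8 had no peak within 10 kb. The nearest midpoint to a start of Lhx3, a pituitary and motor neuron gene, was 28934 bp upstream, in a peak at chr2:26092299-26093108 assigned to Qsox2. Within 100 kb of Lhx3 there were 3 peaks, all assigned to other genes. Lhx8, which acts in cholinergic neurons, teeth and oocytes, stood farther from Isl1 binding than the other 9 genes, at 193566 bp from a peak at chr3:153793936-153794627 assigned to Slc44a5. Its genomic territory, the stretch between the starts of the neighbouring genes, was 624 kb. Counted whatever the assigned gene, 6 of 10 genes had a peak midpoint within 10 kb of a coding start, against 34% of all 22359 annotated protein-coding genes, and these were the 6 genes with promoter peaks.

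The 10 genes lay in gene-poor surroundings. Their territory had a median of 280 kb (86.9 kb at Lhx6 to 834 kb at Lmx1a), against 95.3 kb over all genes. Within 100 kb of their starts lay 0 to 3 peaks, with a median of 1.5 against 2. The gap from a member peak to the next peak had a median of 95.3 kb (10.6 kb at Lhx1 to 348 kb at Lmx1a), against 56.5 kb over all peaks. The territories of Lhx5 and Lhx9, the genes with remote peaks, were 356 and 237 kb, and the list assigned each peak to its closest TSS.

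The promoter sequence of the 10 genes was GC-rich, with a median GC content of 62.8% in the 500 bp to either side of the first coding TSS (54.9% over all genes) and a median CpG ratio of 0.70 (0.55 over all genes). In quartiles of all genes by CpG ratio, a peak within 1 kb was assigned to 2.77%, 8.84%, 31.6% and 60.8% of genes, from the lowest quartile to the highest. Lhx3 (0.32) and Lhx9 (0.53) fell in the second quartile, and neither had a promoter peak. Lhx8 (0.61), Lhx6 (0.66), Lhx2 (0.69), Lhx4 (0.72) and Lmx1a (0.75) fell in the third, where only Lhx8 lacked one. Lhx5 (0.83), Lmx1b (0.84) and Lhx1 (0.86) fell in the highest, where Lhx5 lacked one. The 4 genes without a promoter peak therefore spanned 0.32 to 0.83, overlapping the 0.66 to 0.86 of those with one. The other start of Lhx3 had a ratio of 0.59, and the inner starts of Lhx8 had 0.69 and 0.83. The inner starts of Lhx9 had 0.44 to 0.58, with 0.57 at the one closest to the TSS used by the authors. The place of Lhx3, Lhx8 and Lhx9 in the order thus rests on the start taken.

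**Figure D4:**
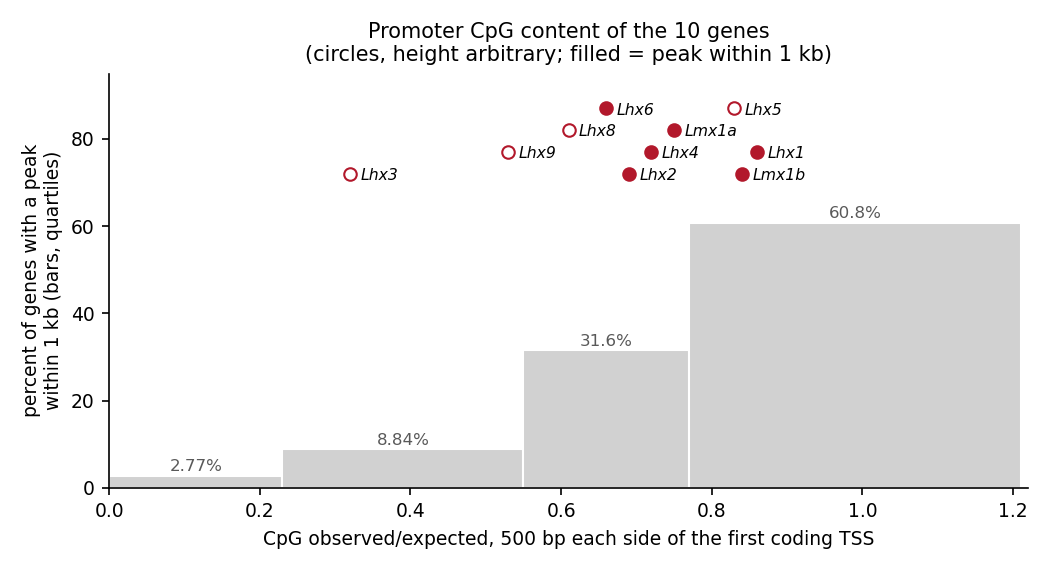
CpG observed/expected ratio around the first coding TSS of the 10 genes (circles, at arbitrary height, filled where a peak lay within 1 kb) over bars that give the percent of all genes with such a peak per quartile of the ratio. The bars rise from 2.77% to 60.8%, and the open circles of Lhx3, Lhx9, Lhx8 and Lhx5 lie at 0.32, 0.53, 0.61 and 0.83.

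Under the peaks themselves, the central 200 bp of the 7 promoter peaks had a mean GC content of 72.2% ± 8.07 (SD over 7 peaks), close to the 73.7% ± 5.88 of all 5416 peaks within 1 kb. Lmx1b was highest at 82%, with a CpG ratio of 0.98, followed by Lhx6 at 77.5% and a ratio of 0.57, and Lmx1a at 76% and 0.97. The upstream Lhx2 peak had 72.5% and 0.81, the downstream one 70.5% and 0.72, and the Lhx4 peak 70.5% and 0.69. The Lhx1 peak was lowest at 56.5%, with a ratio of 0.76. The median ratio of the 7 promoter peaks was 0.76, below the 0.93 of all peaks within 1 kb and above the 0.70 of all peaks. The median width of the 9 peaks was 1210 bp, against 947 bp over all peaks and 1050 bp over all peaks within 1 kb. The Lhx5 peak was wider than 32.3% of all peaks and the Lhx9 peak wider than 89.3%, so the widths did not stand at one end of the list.

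DNA strings of the kind bound by homeodomain and GATA factors were sought on both strands of the central 200 bp. TAAT occurred in 2 of 9 peaks (22.2%), the upstream Lhx2 peak and the Lhx9 repeat, against 19.4% of all peaks. By kind, this was 1 of 7 promoter peaks, against 5.87% of all peaks within 1 kb, and 1 of 2 remote peaks, against 30.5% of all peaks beyond 10 kb. The longer CTAATGG or CTAATTG of LIM-homeodomain type was in 0 of 9 peaks against 0.412% of all, TAATTA in 0 against 0.27%, and a GATA-type string (AGATAA or AGATAG, and likewise TGATAA or TGATAG) in 0 against 4.22%. Each of these strings but the last contains TAAT. The site in the upstream Lhx2 peak lay 79 bp before the midpoint and 76 bp past the TSS, at chr2:38194866-38194889 with 10 bases to either side.
Lhx2 upstream site, chr2:38194866-38194889: gcccgcagccTAATgaccgcggcc
An absence says only that these letters are not in these windows.

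Over whole peaks TAAT occurred 19 times, in 8 of 9 peaks, with 7 in the Lhx9 peak, 3 in that of Lhx5 and none in that of Lmx1b. Of all peaks 74% held it somewhere. The density was 1.79 per kb in the 9 peaks against 2.22 per kb in all, and 1.09 per kb in the 7 promoter peaks against 1.04 per kb in all peaks within 1 kb. GATA-type strings occurred 4 times, in 3 of 9 peaks (Lhx1, Lhx4 and Lhx9), against 45.7% of all whole peaks. The wider window still gave neither the LIM-homeodomain type strings nor TAATTA in any of the 9, while 5% and 5.87% of all whole peaks held these. The promoter peaks at Lhx and Lmx genes thus held TAAT about as densely as promoter peaks elsewhere.

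The partners of these proteins carried peaks too. Of 12 genes of the LIM complex, a list that includes Isl1 and Isl2, 11 had an assigned peak (91.7%, interval 64.6% to 98.5%), against 37.5% of all protein-coding genes. They had 18 peaks in all, and 7 of the 12 had a promoter peak, against 23.2%. Only Lmo3, a LIM-only factor, had none. The adaptor Ldb1, which joins LIM-homeodomain proteins into complexes, had a promoter peak 28 bp from its TSS, and its relative Ldb2 only a peak 237758 bp away in multi-copy sequence (1950 copies). Ssbp2, Ssbp3 and Ssbp4, which stabilise the Ldb proteins, had promoter peaks at 212, 231 and 104 bp, as did the LIM-only genes Lmo1, Lmo2 and Lmo4, the last with 3 peaks. Rlim, a ubiquitin ligase that limits the complex, had only a peak at 68885 bp, in multi-copy sequence (10 copies). With single-copy peaks alone, 9 of the 12 genes kept a peak, and the share of all genes under that limit was not counted.

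The nearest relatives of the 10 genes, both in that list, showed another arrangement. Isl1 itself had 3 peaks and none near the promoter, at 37260, 64995 and 567286 bp from the TSS. Only that at 567286 bp was at single-copy sequence, and the other Isl1 peaks had 66.5 copies (37260 bp) and 2 copies (64995 bp). Isl2 also had 3, at 1252, 5145 and 96844 bp, the last in multi-copy sequence (1081 copies). A promoter peak was thus found at 6 of the 10 Lhx and Lmx genes and at neither Isl gene by the 1 kb limit, though Isl2 came close to it.

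For comparison with other homeobox families, 8 of 14 Nkx genes had an assigned peak (57.1%, interval 32.6% to 78.6%) and 6 of 9 Pax genes (66.7%, interval 35.4% to 87.9%), against 37.5% of all protein-coding genes, a share inside both intervals. Promoter peaks were found at 6 of 14 and 3 of 9, against 23.2%. The most peaks at one gene were 3, at Nkx6-1 and at Pax2, against 2 at Lhx2. The intervals of these families overlap widely with that of the Lhx and Lmx genes, and no difference between the families was tested.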

How the data were processed

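ChIP-Seq was done by the authors on 2 Isl1 ChIP replicates and 1 input. The study's methods state mapping to mm9 by bowtie2, removal of duplicates by Picard 1.136 and MACS14 peak calling with no fragment model. Blacklisted peaks were removed, and bedtools 2.15 (intersect -wa) was used to find peaks that overlapped between the replicates. With that setting the peak edges need not be those of the part that both replicates shared. Each peak was then given its closest TSS. The deposited list holds positions and distances in bp, with no score, fold or read count, so depth is unknown. The list does not say whether starts count from 0 or 1, so starts may be off by 1 bp.

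Identical lines were counted once (14165 lines, 14082 peaks). Gene parts came from GENCODE on the same assembly (NCBI m37), and gene names and promoter sequences from RefSeq (GRCm38.p6), with promoters placed on mm9 by exact match. RefSeq promoters existed here for 9 of the 10 genes, 13 in all, and each matched once. Those overlapping an annotated exon were not printed. Members and lists were chosen with earlier results of these data known. All members, the 12 LIM complex genes, genes with a peak between them and a member or within 10 kb of one, and the Nkx and Pax genes with most peaks were named by rule, and the 2 overlapping RNA genes after their positions were seen. Shares carry 95% Wilson intervals. Word counting and repeat finding were tested on simulated sequence (Python 3.11.15, numpy 2.4.6, scipy 1.17.1, pysam 0.24.0).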

Additional observations from a re-analysis of the deposited data

How the results depend on the processing

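No paired analysis was possible because both replicates were combined into 1 list before deposition, and for the same reason no replicate could be left out. Of 54 alternatives over 10 results, 47 stayed within 1.5 times the count, within the interval or within 1 SD. Asking for at least 2 peaks left 1 gene in place of 8. Since the remote peaks of Lhx5 and Lhx9 are the multi-copy ones, single-copy peaks alone put 100% within 1 kb of the TSS, peaks within 10 kb alone put 100% at single-copy sequence, and either choice took TAAT in the centre from 22.2% to 14.3% (1 of 7 peaks). TAAT was in 11.1% of the central 100 bp and in 88.9% of whole peaks, as a narrower or wider window holds fewer or more sites. A promoter limit of 500 bp gave 5 of 9 peaks in place of 7 and assignment to the closest GENCODE coding start gave the same 9 peaks. With 9 peaks, 1 peak moves a share by 11.1 percentage points.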
